A study of Mus musculus with 16 samples.

Results

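The genes described are the transferases of phase II metabolism, the step in which liver cells attach a water-soluble group to drugs, hormones, bile acids and bilirubin. The rule reads gene names and no measured values. A gene entered when its symbol marked it as a soluble glutathione S-transferase (GST) of the alpha, kappa, mu, pi, theta, omega or zeta class, a UDP-glucuronosyltransferase (UGT), or a cytosolic sulfotransferase (SULT). Of 35502 genes in the deposited table, 62 matched. Sult1e1 and Sult3a1 were left out by name, which left 60: 22 GST, 21 UGT and 17 SULT genes. Counts were found for 58 of them. Gstt4 and Sult1c1 were listed at 0 in every library. The filter on low counts kept 51 for testing, 19 GST, 18 UGT and 14 SULT genes.

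The data are 16 RNA-seq libraries of whole liver, each from an individual mouse, in 4 groups of 4. Mature LERKO mice carried Cre, and mature controls were flox mice without Cre. Immature LERKO mice and immature controls differed in the same way. LERKO stands for a liver-specific knockout of oestrogen receptor alpha, the product of Esr1. The series title speaks of knockout before and after sexual maturity. The sources used here do not say whether stage means the age when the gene was lost or when the liver was taken. They do not state the sex and age of the mice, the promoter that drives Cre, or the floxed exon. The comparisons ask whether the transcripts of the conjugating enzymes differ between LERKO mice and controls within a stage, between stages within a genotype, and whether the knockout difference depends on stage.

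GST enzymes join glutathione to electrophiles such as epoxides and lipid peroxidation products. UGT enzymes of the endoplasmic reticulum transfer glucuronic acid from UDP-glucuronate, and Ugt1a1 does so for bilirubin. SULT enzymes transfer sulfate from the donor PAPS to phenols, catecholamines, steroids and bile acids. In mouse liver many of these genes are known to respond to nuclear receptors, to the oxidative stress factor encoded by Nfe2l2, and to sex hormones through the pattern of growth hormone release. Gstp1 is known for a higher level in male livers and several Sult2a genes for a higher level in female livers.

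Promoter sequence is shown first for the Sult2a genes of chromosome 7, because 6 of them, Sult2a1 to Sult2a6, varied together between mice, while Sult2a8 in the same cluster did not follow them. RefSeq promoter windows (GRCm38.p6, 250 bases before to 50 bases after the transcript start) were found for 52 of the 60 genes, and for Sult2a3, Sult2a4, Sult2a5, Sult2a6 and Sult2a8 among the cluster. The windows lie on chr7:14122999-14123298 (minus strand), chr7:13989539-13989838 (minus), chr7:13623717-13624016 (plus), chr7:14254821-14255120 (minus) and, for 1 of the 2 windows of Sult2a8, chr7:14446538-14446837 (minus). Capitals mark TCATGAACT and, nearer the start, GTTAATGAT. Both were chosen after the sequences were seen.
Sult2a3: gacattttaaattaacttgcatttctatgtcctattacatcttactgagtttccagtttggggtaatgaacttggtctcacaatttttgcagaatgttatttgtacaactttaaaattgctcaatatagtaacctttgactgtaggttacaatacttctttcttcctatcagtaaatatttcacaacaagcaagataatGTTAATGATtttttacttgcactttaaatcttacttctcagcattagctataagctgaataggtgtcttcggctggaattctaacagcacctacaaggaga
Sult2a4: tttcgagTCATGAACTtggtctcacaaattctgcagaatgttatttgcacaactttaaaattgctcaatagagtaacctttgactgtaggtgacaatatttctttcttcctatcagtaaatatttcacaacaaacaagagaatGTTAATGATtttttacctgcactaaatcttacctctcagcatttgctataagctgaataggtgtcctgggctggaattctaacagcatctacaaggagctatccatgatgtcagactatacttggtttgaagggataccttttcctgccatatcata
Sult2a5: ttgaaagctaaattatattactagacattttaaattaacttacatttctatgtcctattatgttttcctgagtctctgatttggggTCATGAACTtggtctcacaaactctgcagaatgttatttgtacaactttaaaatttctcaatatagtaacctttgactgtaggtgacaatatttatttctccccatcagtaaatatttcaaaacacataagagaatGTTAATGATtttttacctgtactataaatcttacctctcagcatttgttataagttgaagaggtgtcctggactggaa
Sult2a6: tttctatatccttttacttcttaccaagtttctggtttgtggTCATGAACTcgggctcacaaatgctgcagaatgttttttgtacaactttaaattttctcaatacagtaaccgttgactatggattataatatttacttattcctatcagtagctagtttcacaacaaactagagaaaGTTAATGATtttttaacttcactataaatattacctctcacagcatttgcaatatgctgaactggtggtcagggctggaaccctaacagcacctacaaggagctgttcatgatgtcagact
Sult2a8: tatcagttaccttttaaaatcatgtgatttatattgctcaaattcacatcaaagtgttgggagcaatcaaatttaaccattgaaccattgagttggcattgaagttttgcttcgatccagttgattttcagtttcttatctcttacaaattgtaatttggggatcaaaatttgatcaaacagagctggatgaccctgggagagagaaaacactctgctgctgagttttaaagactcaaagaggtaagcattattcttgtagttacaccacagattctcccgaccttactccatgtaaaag

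GTTAATGAT began 51, 107, 28 and 71 bases before the start in Sult2a3, Sult2a4, Sult2a5 and Sult2a6. TCATGAACT began 243, 164 and 208 bases before it in Sult2a4, Sult2a5 and Sult2a6. Searched on both strands, each of the 2 motifs was present in 0.216% of the 32851 promoter windows of the table, and neither was in a window of Sult2a8. Since the motifs were picked from these windows, their presence there and absence from Sult2a8 are no test of a link to the levels. GTTAATGAT was also in windows of Ugt1a1 and Ugt1a9. In the rat, the letters TCATGAACT lie in an inverted repeat of a Sult2a promoter that nuclear receptors are known to bind. The letters GTTAAT are those of the half-site of the liver factors of the HNF1 family. These matches describe letters, and binding was not measured here.

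Among the GST genes, the core of the antioxidant response element, TGACNNNGC on either strand, was found in Gsta3 on chromosome 1, Gstm5 and Gstm7 on chromosome 3, and in no other gene of the 52 with a window. It was present in 12.4% of all windows, and in windows of 3781 of all 27025 genes with a window. The 49 bases around each match are shown with the core in capitals, for chr1:21240444-21240492 (plus strand), chr3:107895792-107895840 (plus) and chr3:107931715-107931763 (minus), because Gstm5 and Gstm7 belong to a cluster whose members were high in the same mouse.
Gsta3: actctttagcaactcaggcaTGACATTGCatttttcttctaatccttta
Gstm5: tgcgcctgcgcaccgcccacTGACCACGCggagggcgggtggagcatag
Gstm7: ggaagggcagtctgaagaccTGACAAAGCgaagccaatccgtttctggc
The half-site AGGTCA was found in windows of 11 of the 52 genes, against 4900 of all 27025 genes with a window. The palindromic oestrogen response element was in windows of 0 of the 52, against 20 of the 27025. It is so rare that 0 of 52 says little.

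Total counts ran from 18123974 to 23213905 per library. Levels below are CPM, read counts scaled to library size with TMM factors, and errors are SD over 4 mice. Esr1 averaged 16.3 ± 2.19 CPM in mature LERKO and 82.2 ± 19.1 CPM in mature control livers, and 12.99 ± 2.19 CPM in immature LERKO and 73.6 ± 15.8 CPM in immature control livers, with no overlap between genotypes at either stage. On the log2 scale the fold change was -2.33 (SE 0.19, adjusted p = 1.57e-05, edgeR) in mature and -2.50 (SE 0.19, adjusted p = 6.55e-06, edgeR) in immature mice. Single libraries stood apart. In mature LERKO library 4, 8 acute phase genes summed to 84390 CPM and 5 neutrophil and lymphocyte genes to 59.7 CPM, against at most 9053 and 5.64 CPM in the other 15 libraries. Skeletal muscle transcripts, 7 genes summed, reached 582, 249 and 47.0 CPM in mature control libraries 1, 2 and 4 and 128 CPM in immature LERKO library 4, and at most 1.83 CPM elsewhere. Xist, the transcript of the inactive X chromosome, had 9 counts in immature LERKO library 2 against 9107 to 14219 in the other 15, while the Y-linked Ddx3y, Eif2s3y, Kdm5d and Uty were listed at 0 in all 16. Endothelial markers (5 genes) and stellate markers (5 genes) were lowest in mature LERKO library 4, at 59.6 and 55.2 CPM, against 73.2 to 170.4 and 138 to 299.8 CPM elsewhere. Xist and the Y-linked genes were chosen after the data were seen, and the part of these library differences in the results below was not tested. The 5 hepatocyte markers, Alb among them, summed to 79510 CPM in mature LERKO library 4 and to 100000 to 145100 CPM in the other 15, and the 3 kidney markers were listed at 0.

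The summed level of each enzyme class overlapped between LERKO and control livers at both stages. Group means differed by less than the SD of the LERKO mice, but not always by less than the SD of the controls. The GST genes summed to 4317, 3740, 4428 and 2800 CPM in mature LERKO livers, against 3851, 4486, 4279 and 3954 CPM in mature controls. In immature mice the GST sum was 4270, 3350, 4623 and 4414 CPM in LERKO and 2944, 3760, 4447 and 3756 CPM in controls. The groups overlapped at both stages. UGT genes, with the lowest Ugt1a row of a library entered once and the other Ugt1a rows by what they exceeded it, summed to 3232 ± 508 CPM in mature LERKO and 3331 ± 301 CPM in mature control livers, and to 3451 ± 649 CPM in immature LERKO and 3805 ± 218 CPM in immature control livers. SULT genes summed to 1083 ± 195 CPM in mature LERKO and 1227 ± 166 CPM in mature control livers, and to 1255 ± 369 CPM in immature LERKO and 1312 ± 192 CPM in immature control livers (SD, n = 4 each). In each class the lowest mature LERKO value was that of library 4. Since whole liver was sequenced, fewer cells of a type and less RNA per cell cannot be told apart.

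**Figure D1:**
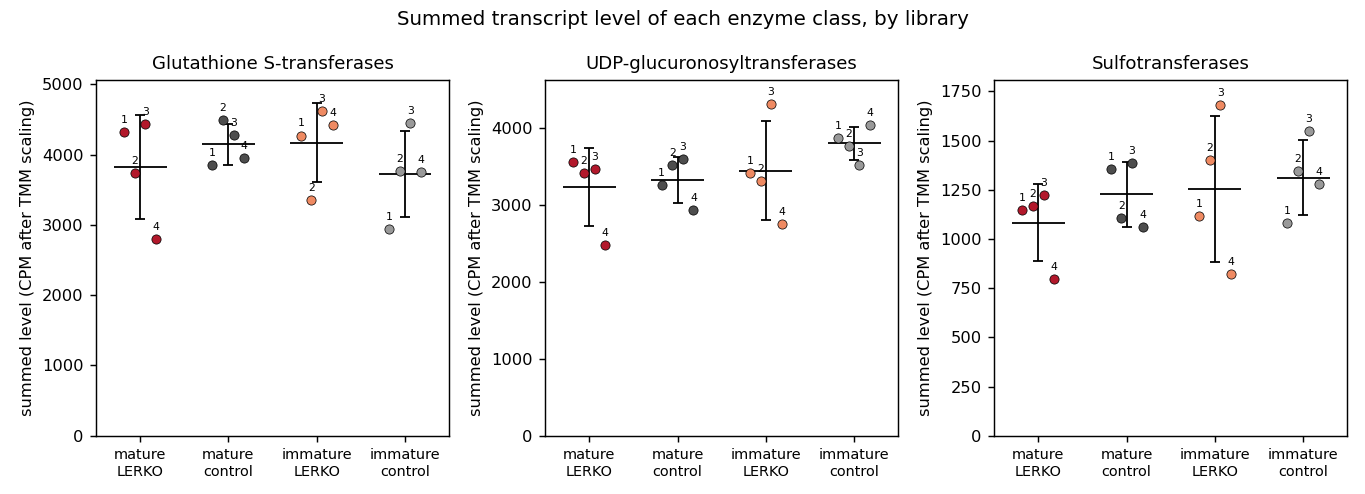
Summed level (CPM after TMM scaling) of the GST, UGT and SULT genes in each of 16 libraries, grouped by stage and genotype; points are libraries with their number, horizontal lines are means and bars are SD (n = 4). The groups overlap in all 3 classes, and mature LERKO library 4 is the lowest of its group in each, at 2800 CPM for GST, 2476 CPM for UGT and 795.5 CPM for SULT.

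No conjugating enzyme passed an adjusted p of 0.05 in either knockout comparison with edgeR's quasi-likelihood test, adjusted over 13379 genes. In mature mice 0 of 51 passed, against 0.00747% of all genes, a share that is Esr1 alone, and the smallest adjusted p of the 51 was 0.481 in edgeR. An unadjusted p under 0.05 was reached by 2 of 51, Sult3a2 with a higher and Gstt2 with a lower level in LERKO, against 7.3% of all genes. DESeq2 called 1 of 51, Sult3a2, among 27 genes it called in all, and limma-voom called 0. Levels did not overlap between mature LERKO and mature control mice for 3 of the 51, Sult2a4 and Sult3a2 higher and Gstt1 lower in LERKO, against 3.9% of all genes. The first share is smaller than among all genes, and the second rests on 3 genes. Of these, Sult3a2 passed the filter on low counts only with its mature LERKO libraries.

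In immature mice 0 of 51 passed either, against the same 0.00747% of all genes, with a smallest adjusted p of 0.9995 in edgeR, and DESeq2 and limma-voom called 0. An unadjusted p under 0.05 was reached by 3 of 51, Sult3a2, Gstm2 and Gstm5, all higher in LERKO, against 2.76% of all genes. Sult3a2 alone did not overlap between immature LERKO and immature control mice, against 1.63% of all genes. Over both stages, the knockout effect passed for 0 of 51 in edgeR, against 0.00747% of all genes, and reached an unadjusted p under 0.05 for 2, Sult3a2 and Gstt2, against 3.69%. The knockout effect differed between stages beyond the threshold for 0 of 51 genes in edgeR and in DESeq2, against 0% of all genes in edgeR, and 4 genes, Sult1b1, Gstm5, Gstm6 and Gstm2, had an unadjusted p under 0.05 for that difference, against 6.35% of all genes.

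The precision differed by class. In mature mice the 95% interval of the knockout effect lay within 2-fold of no difference for 14 of 19 GST, 17 of 18 UGT and 4 of 14 SULT genes, against 81.25% of all genes. Among immature mice it did so for 13 of 19, 17 of 18 and 5 of 14, against 83.44%. The median SD between mice of a group, on the log2 scale with an offset of 0.5 CPM, was 0.36 for GST, 0.21 for UGT and 0.84 for SULT genes, against 0.23 for all tested genes. The median log2 fold change in mature LERKO was -0.19 over GST, -0.08 over UGT and 0.88 over SULT genes, against -0.01 over all genes. In immature LERKO it was 0.30, -0.17 and -0.19, against 0.01 over all genes. Without mature LERKO library 4 the mature UGT median was 0.08, with 16 of 18 values positive in place of 5, and the GST median was -0.06. Without immature LERKO library 4 the immature GST median was 0.12 and the SULT median 0.03. Without immature control library 3 the immature SULT median was 0.54, with 12 of 14 values positive in place of 5, and without mature control library 2 the mature SULT median was 1.65. Of the 18 UGT values 9 are the Ugt1a rows, which are not separate measurements. Of the 14 SULT values 6 are Sult2a1 to Sult2a6, which moved together between mice and lay at 1.30 to 2.39 in mature LERKO. Sult1a1, Sult2a8 and Sult1d1, with 40.4, 36.6 and 15.7% of the SULT sum, had 0.04, -0.62 and -0.11 there. The SULT median thus does not describe the most abundant genes of the class.

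**Figure D2:**
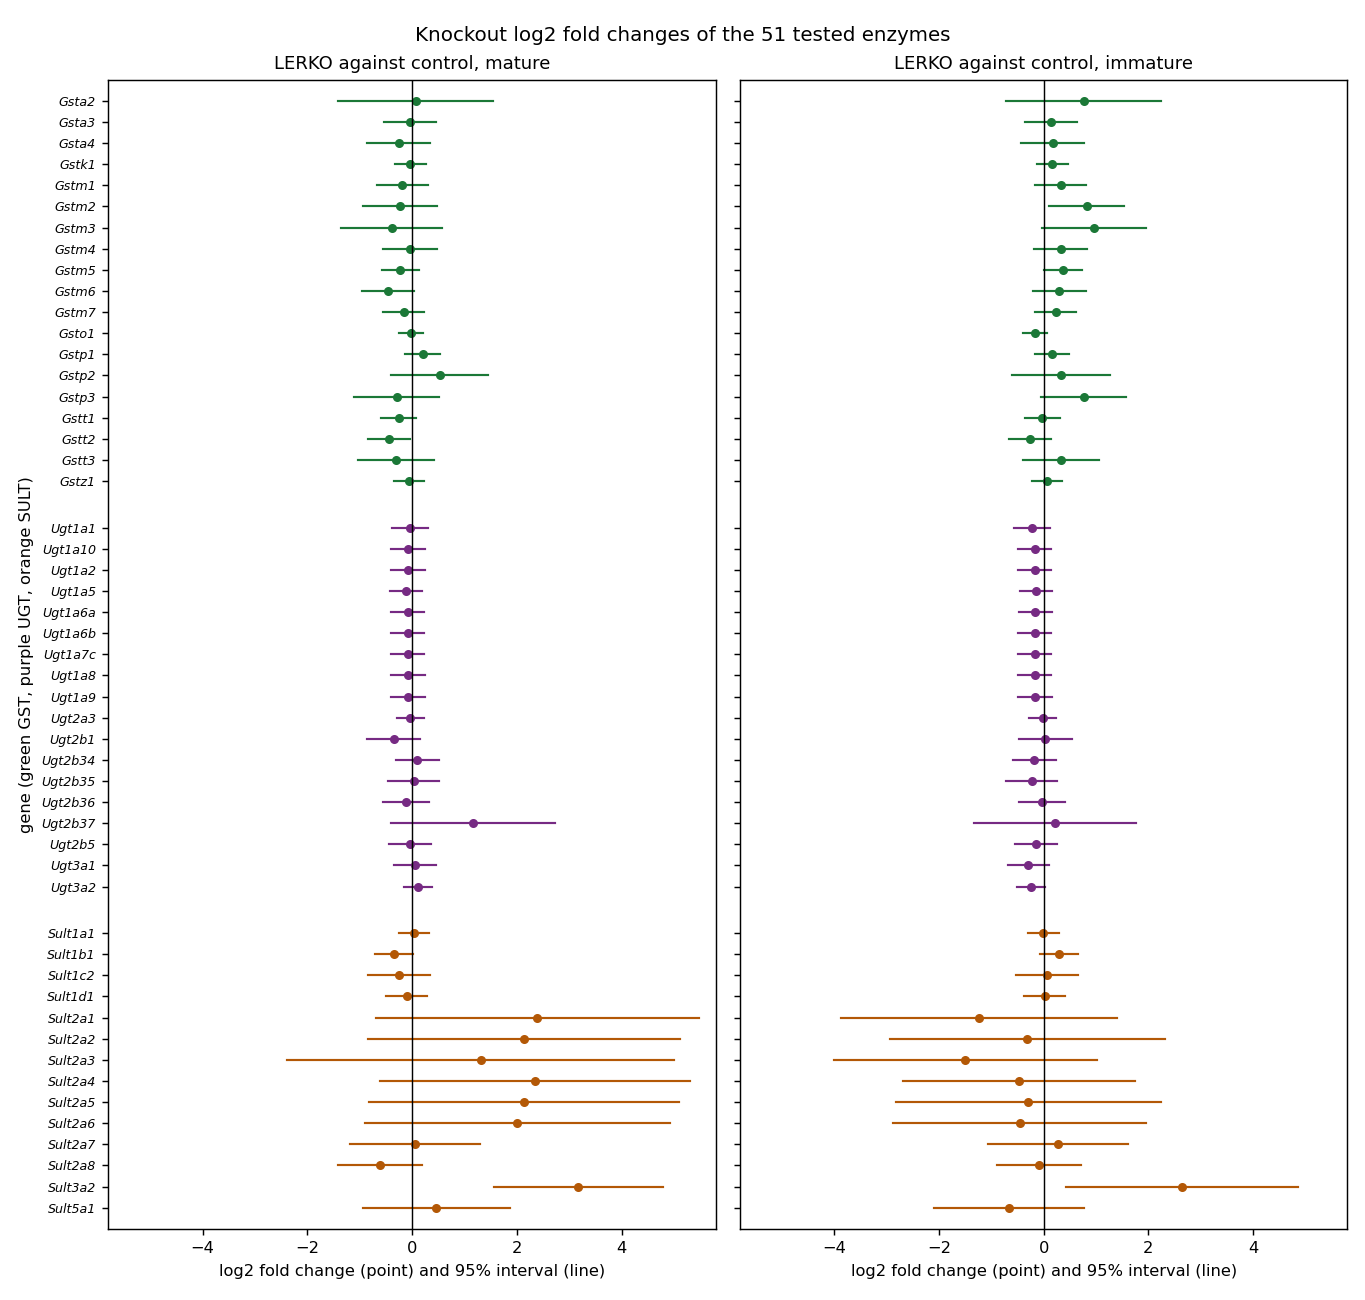
Log2 fold change of LERKO against control with its 95% interval for the 51 tested genes, in mature mice on the left and immature mice on the right, grouped by class and colour. Intervals are narrow for most GST and UGT genes and wide for Sult2a1 to Sult2a6, whose fold changes are 1.30 to 2.39 in mature and -1.497 to -0.29 in immature mice; Sult3a2 lies at 3.17 and 2.65.

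Among GST genes, levels per kilobase of exon were highest for Gstm1, a mu-class enzyme, at 563 CPM per kilobase over the 16 libraries. Gsta3, the alpha-class enzyme known in mice for conjugating the aflatoxin epoxide, followed at 318 CPM per kilobase. Gstt1, a theta-class enzyme that acts on small halogenated compounds, stood at 175 and Gstz1, which isomerises maleylacetoacetate in tyrosine breakdown, at 152 CPM per kilobase. Part of the reads of Gstz1 may belong to Pomt2 on the opposite strand, since 465 bases of its exons overlap and the sources used here do not state whether counting used strand.

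Gsta3 (chromosome 1, 21240589 to 21265661, GRCm38) had 1539, 1424, 1751 and 718 CPM in mature LERKO livers, against 1267, 1632, 1467 and 1256 CPM in mature controls. At the immature stage it had 1609, 1175, 1794 and 1231 CPM in LERKO and 952, 1346, 1627 and 1330 CPM in controls. The groups overlapped, and mature LERKO library 4 was the lowest of all 16. The log2 fold change was -0.05 (SE 0.23, adjusted p = 0.983, edgeR) in mature and 0.14 (SE 0.23, adjusted p = 0.9995, edgeR) in immature mice. Gstz1, by contrast, had 811 CPM in that library, within the 633 to 845 CPM of the other mature mice.

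Gstt1 (chromosome 10, 75783813 to 75798584) had 274, 259, 275 and 154.5 CPM in mature LERKO livers, against 277, 285, 298 and 289.5 CPM in mature controls. All 4 LERKO values were below all 4 control values, and library 4 was far below the rest. On the log2 scale the fold change was -0.26 (SE 0.16, adjusted p = 0.729, edgeR), and -0.06 without that library. Immature LERKO livers had 241 to 308 CPM and immature controls 242 to 327 CPM, which overlapped. Gstt3, chosen after its values were seen, ran from 36.1 to 116 CPM over the 16 libraries, and 524 of its exon bases are shared with Gm20441. Gstt2, a gene in the theta cluster, had 74.5, 95.7, 72.0 and 56.7 CPM in mature LERKO livers, against 84.1, 112, 107 and 105 CPM in mature controls. Its fold change on the log2 scale was -0.45 (SE 0.19, adjusted p = 0.645, edgeR) in mature and -0.27 (SE 0.19, adjusted p = 0.9995, edgeR) in immature mice, and -0.36 (SE 0.13, adjusted p = 0.999, edgeR) with the stages together.

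The mu-class genes lie in 1 cluster on chromosome 3, from Gstm5 at 107895821 to Gstm4 at 108044894. All 7, Gstm1 to Gstm7, had their highest level of the 16 libraries in immature LERKO library 4, and the lowest level of the 8 immature libraries was in immature control library 1 or 4 for 6 of the 7. Gstm2 had 46.6, 41.3, 52.6 and 96.0 CPM in immature LERKO livers, against 16.5, 29.1, 63.6 and 24.5 CPM in immature controls. Gstm6 had 51.2, 53.2, 52.0 and 83.8 CPM in immature LERKO livers, against 33.2, 58.4, 67.7 and 36.5 CPM in immature controls. Gstm5 had 5.57, 6.93, 7.20 and 10.8 CPM in immature LERKO livers, against 5.34, 6.10, 7.03 and 5.05 CPM in immature controls. LERKO library 4 and control library 3 were the high ones in their groups for all 3 genes, and the groups overlapped.

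The log2 fold change in immature LERKO was 0.82 (SE 0.34, adjusted p = 0.9995, edgeR) for Gstm2 and 0.37 (SE 0.17, adjusted p = 0.9995, edgeR) for Gstm5. Without LERKO library 4 these were 0.49 and 0.16, and without control library 3 the value of Gstm2 was 1.34. In mature mice the fold changes of all 7 mu-class genes were negative, from -0.46 for Gstm6 (SE 0.24, adjusted p = 0.708, edgeR) to -0.04 for Gstm4, and in immature mice all 7 were positive. The difference of knockout effects between stages was -1.05 (SE 0.48) for Gstm2, -0.60 (SE 0.24) for Gstm5 and -0.76 (SE 0.34) for Gstm6 on the log2 scale, with adjusted p of 0.773, 0.768 and 0.773 in edgeR. Gstm3, chosen after its values were seen, had 19.4, 11.5, 18.5 and 41.2 CPM in immature LERKO livers, against 4.15, 13.7, 24.5 and 4.03 CPM in immature controls. Immature LERKO library 4 also held 128 CPM of muscle transcripts, whose part in these values was not tested. Gstm1 and Gstm3 share 18.9% and 28.8% of their 50-base stretches with other genes, so part of their counts is uncertain.

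**Figure D3:**
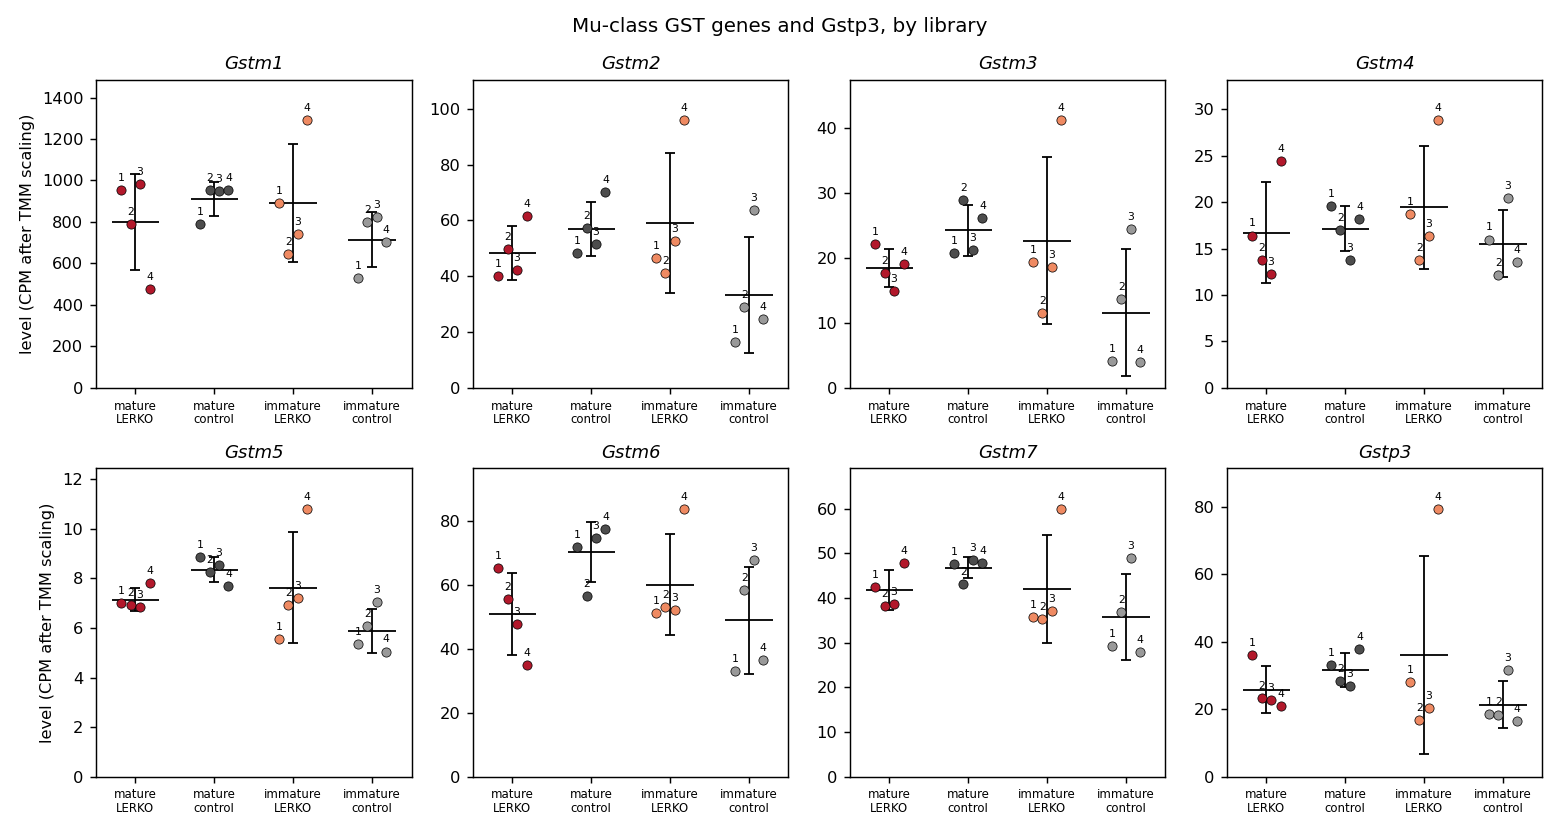
Levels (CPM after TMM scaling) of Gstm1 to Gstm7 and Gstp3 in each library; points are libraries with their number, lines are means and bars SD (n = 4). Immature LERKO library 4 is the highest of all 16 in every panel, for example 96.0 CPM for Gstm2 and 79.4 CPM for Gstp3.

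The pi-class genes lie side by side on chromosome 19. Gstp1 had 119, 81.8, 95.1 and 151 CPM in mature LERKO livers, against 101, 99.8, 95.4 and 93.0 CPM in mature controls. The control mice were close together and the LERKO mice lay on both sides of them. Its log2 fold change was 0.20 (SE 0.16, adjusted p = 0.797, edgeR) in mature and 0.16 (SE 0.16, adjusted p = 0.9995, edgeR) in immature mice, and 0.18 (SE 0.11, adjusted p = 0.999, edgeR) with the stages together. Gstp2 stood at 0.186 to 1.007 CPM, and since 49.1% of its 50-base stretches are also found in Gstp1, its counts may be reads of Gstp1. Gstp3, which shares none, had 28.1, 16.6, 20.2 and 79.4 CPM in immature LERKO livers, against 18.4, 18.4, 31.6 and 16.6 CPM in immature controls, again with LERKO library 4 and control library 3 high. Its fold change on the log2 scale was 0.76 (SE 0.39, adjusted p = 0.9995, edgeR) there and -0.29 (SE 0.38, adjusted p = 0.894, edgeR) in mature mice.

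The other GST genes were chosen after their values were seen. Gstk1, the kappa-class enzyme of mitochondria and peroxisomes, ran from 62.8 to 92.9 CPM and Gsto1, an omega-class thioltransferase, from 68.1 to 108 CPM over the 16 libraries. Gsta4, which conjugates the lipid peroxidation product 4-hydroxynonenal, had 52.1, 46.5, 65.0 and 19.1 CPM in mature LERKO livers, against 39.9, 64.0, 65.1 and 49.7 CPM in mature controls. Gsta2 had 5.84, 2.70, 6.90 and 0.415 CPM in mature LERKO livers, against 1.73, 6.14, 4.601 and 2.69 CPM in mature controls. In both, mature LERKO library 4 was the lowest of all 16, and the groups overlapped. Gsta1, Gsto2 and Gstt4 did not pass the filter, with 32, 24 and 0 counts in all libraries together.

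Of the UGT genes, the 9 Ugt1a rows could not be read as 9 measurements. The Ugt1a gene, on chromosome 1 from 88055388 to 88220002, joins alternative first exons to a shared set of last exons, and 1311 of the 2224 exon bases of Ugt1a1 are shared with each of the other 8. The lowest Ugt1a row of a library held 8679 to 20024 counts and was 62.9 to 71.7% of the highest, which was Ugt1a1 in each library. The rows other than Ugt1a1 lay within 11.3% of the lowest. How reads of the shared exons were counted is not stated, and the fold changes of the 9 rows were nearly equal: from -0.12 to -0.04 in mature and from -0.23 to -0.14 in immature LERKO on the log2 scale, with SE of 0.15 or 0.16.

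Each row was also described by its excess, the count beyond that of the lowest row of its library. Ugt1a7c shares 2170 exon bases with Ugt1a6a and 1444 with Ugt1a6b, more than the 1311 common to all rows, so the excess of these 3 rows can hold the same reads, and the UGT sum can count such reads more than once. For Ugt1a1, the bilirubin transferase, this excess was 385, 497.5, 408 and 229 CPM in mature LERKO livers, against 329, 376, 417.5 and 345 CPM in mature controls. In immature mice it was 392, 368, 362.5 and 268 CPM in LERKO and 486, 430.2, 361 and 491 CPM in controls. The groups overlapped at both stages. The row Ugt1a5 had an excess of 39.0, 63.4, 42.8 and 31.8 CPM in mature LERKO livers, against 63.4, 69.4, 63.9 and 81.7 CPM in mature controls, where the highest LERKO value met the lowest control value. Among immature mice it ran from 27.7 to 73.1 CPM in LERKO and from 11.8 to 75.5 CPM in controls. The excess was 4.17 to 24.2 CPM for Ugt1a9 and 23.04 to 48.5 CPM for each of Ugt1a6a, Ugt1a6b and Ugt1a7c. For Ugt1a2, Ugt1a8 and Ugt1a10 it was at most 0.51 CPM. The excess is a description with no test, and the antisense gene Gm20528 overlaps 922 exon bases of Ugt1a1.

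Ugt2b enzymes conjugate steroids, bile acids and drugs, and their genes lie with Ugt2a3, Sult1b1 and Sult1d1 in 1 stretch of chromosome 5. Ugt2b1 (86916638 to 86926530) had 171.5, 141, 139 and 69.8 CPM in mature LERKO livers, against 192, 162, 188 and 125 CPM in mature controls. At the immature stage it had 139, 220.2, 222 and 153 CPM in LERKO and 165, 229.6, 173 and 149.8 CPM in controls. The groups overlapped, with mature LERKO library 4 lowest of all 16. Its log2 fold change was -0.35 (SE 0.24, adjusted p = 0.749, edgeR) in mature and 0.03 (SE 0.24, adjusted p = 0.9995, edgeR) in immature LERKO. Ugt2b36, Ugt2b5, Ugt2b34 and Ugt2a3, chosen after their values were seen, stood at 326 to 725.5, 290.4 to 613, 283 to 540 and 222 to 306 CPM over the 16 libraries, and their log2 fold changes lay between -0.12 and 0.10 in mature and between -0.18 and -0.02 in immature LERKO. Ugt2b35 and Ugt2b37 were also chosen after their values were seen. Ugt2b35 stood at 50.6 to 124 CPM, and Ugt2b37 was low, at 0.245 to 5.27 CPM.

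Ugt3a1 and Ugt3a2, whose human counterparts use other UDP-sugars than UDP-glucuronate, were both chosen after their values were seen. Their knockout fold changes were 0.05 and 0.11 in mature and -0.29 and -0.24 in immature mice on the log2 scale. Ugt3a2 had 291, 269, 262 and 293 CPM in mature LERKO livers, against 278, 267.5, 260.2 and 227 CPM in mature controls. In immature mice it had 278, 272, 317 and 204 CPM in LERKO and 331, 329.7, 271 and 335 CPM in controls. The difference of the knockout effects was 0.35 (SE 0.18, adjusted p = 0.774, edgeR). Ugt2b38, Ugt2a1 and Ugt2a2 did not pass the filter, with 54, 1 and 1 counts in all.

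Of the SULT genes, Sult1a1, the phenol sulfotransferase, stood highest per kilobase, at 327 CPM per kilobase, followed by Sult2a8, which sulfates bile acids in mouse liver, at 136 and Sult1d1, a catecholamine sulfotransferase, at 77.8. Sult1a1 (chromosome 7, 126672865 to 126676432) had 466, 589, 562 and 463 CPM in mature LERKO livers, against 496, 467, 558 and 505 CPM in mature controls. The log2 fold change was 0.04 (SE 0.14, 95% interval -0.25 to 0.33, adjusted p = 0.974, edgeR) in mature and -0.0048 (SE 0.14, interval -0.30 to 0.29, adjusted p = 0.9995, edgeR) in immature mice. The interval of Sult1d1 was -0.49 to 0.28 in mature and -0.37 to 0.41 in immature mice. Sult1d1 stood at 134 to 239 CPM over the 16 libraries, lowest in mature LERKO library 4.

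Sult1b1, which sulfates thyroid hormones, had 28.2, 24.0, 20.2 and 22.2 CPM in mature LERKO livers, against 38.6, 24.9, 31.7 and 25.3 CPM in mature controls. Among immature mice it had 23.5, 40.95, 28.5 and 27.9 CPM in LERKO and 25.97, 21.7, 27.3 and 23.3 CPM in controls. The groups overlapped at both stages, and the high immature LERKO value was that of library 2, the one with 9 counts of Xist. Its fold change on the log2 scale was -0.35 (SE 0.17, adjusted p = 0.698, edgeR) in mature and 0.30 (SE 0.17, adjusted p = 0.9995, edgeR) in immature mice, a difference between stages of -0.64 (SE 0.24, adjusted p = 0.768, edgeR).

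Sult2a genes encode hydroxysteroid and bile acid sulfotransferases, and 8 of them occupy chromosome 7 between 13623967 and 14494230. Sult2a1 to Sult2a6 were present in some mice of a group and nearly absent in others. Their summed level was 28.0, 29.0, 41.0 and 17.1 CPM in mature LERKO livers, against 0.203, 21.9, 1.03 and 2.10 CPM in mature controls. At the immature stage it was 124, 0.267, 69.3 and 12 CPM in LERKO and 7.98, 0.0517, 249.9 and 82.1 CPM in controls. All 4 mature LERKO mice lay in the middle of this range, 3 of 4 mature controls were low, and both immature groups held a nearly empty library. The 6 rows ordered the libraries alike: immature control libraries 3 and 4 and immature LERKO libraries 1 and 3 were the 4 highest for all 6. Mature control library 1, immature LERKO library 2 and immature control library 2, with 4, 5 and 1 counts over the 6 rows, were among the 4 lowest for all 6.

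Sult2a1 (13796246 to 13837409) had 8.23, 11.1, 12.3 and 5.86 CPM in mature LERKO livers, against 0.152, 6.09, 0.402 and 0.547 CPM in mature controls. In immature mice it had 38.5, 0.160, 23.03 and 3.09 CPM in LERKO and 3.16, 0.0517, 123.1 and 26.3 CPM in controls. The mature groups overlapped only through LERKO library 4 and control library 2. Sult2a4 had 0.711, 0.801, 1.12 and 0.711 CPM in mature LERKO livers, against 0, 0.558, 0.0447 and 0.0421 CPM in mature controls, and these did not overlap, on 12 to 22 counts in LERKO and 0 to 12 counts in control libraries. On the log2 scale the fold change in mature LERKO was 2.39 for Sult2a1 (SE 1.45, 95% interval -0.69 to 5.47, adjusted p = 0.729, edgeR) and 2.34 for Sult2a4 (SE 1.40, adjusted p = 0.726, edgeR), and 4.53 for Sult2a4 without control library 2. The other 4 rows had 1.30 to 2.14. In immature LERKO the 6 fold changes ran from -1.497 for Sult2a3 (SE 1.18, adjusted p = 0.9995, edgeR) to -0.29 for Sult2a5. All 6 intervals at each stage included 0.

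The 6 rows are not 6 independent measurements. Of the 50-base stretches of its transcripts, Sult2a2 shares 62.1% with other genes, Sult2a5 34.5%, Sult2a1 33.2%, Sult2a4 25.5%, Sult2a3 8.36% and Sult2a6 6.63%, mostly with each other, and the sources used here do not state how reads with several matches were counted. Of the 3 nearly empty libraries, immature LERKO 2 had 9 counts of Xist, while mature control 1 and immature control 2 did not stand apart in Xist, and mature control 1 held the most muscle transcripts. Sult2a8 (14410686 to 14446769), which shares 1.72%, did not follow the 6 rows. It had 397, 335, 345 and 130.3 CPM in mature LERKO livers, against 601, 377.5, 544.5 and 328 CPM in mature controls. Among immature mice it had 333, 619, 825 and 201 CPM in LERKO and 543, 607, 519.7 and 430.1 CPM in controls. The libraries nearly empty of Sult2a1 to Sult2a6 held 601, 619 and 607 CPM of Sult2a8. Its log2 fold change was -0.62 (SE 0.38, adjusted p = 0.733, edgeR) in mature and -0.09 (SE 0.38, adjusted p = 0.9995, edgeR) in immature LERKO. Sult2a7 stood at 0.213 to 6.19 CPM, with log2 fold changes of 0.06 and 0.27.

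**Figure D4:**
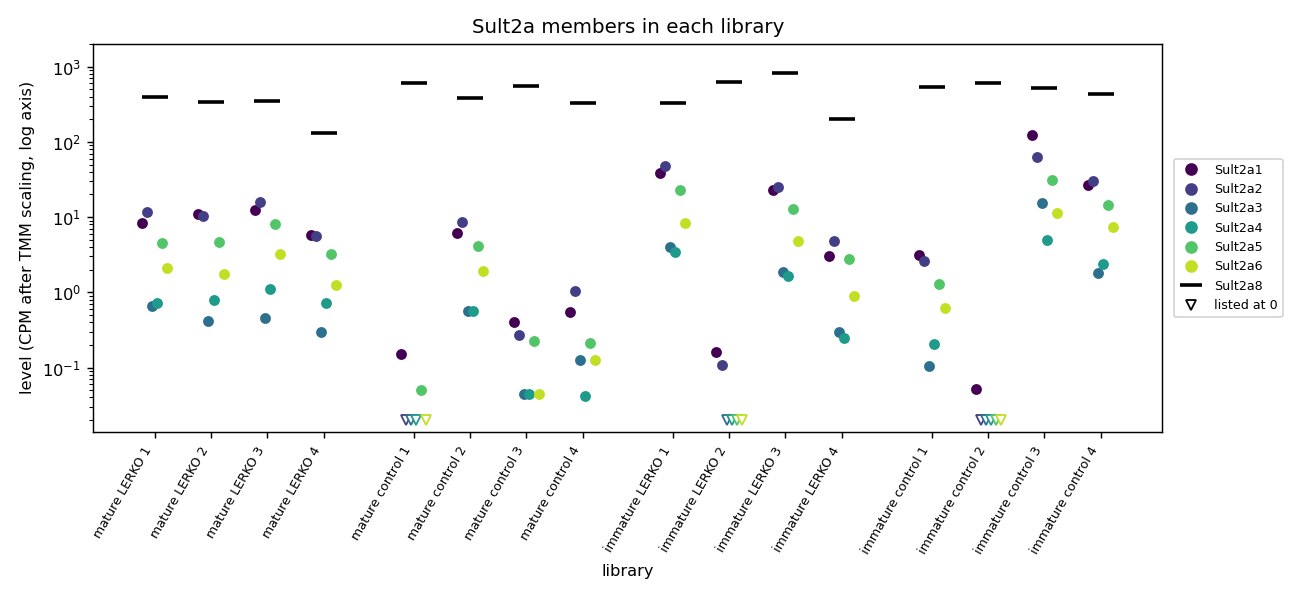
Level (CPM after TMM scaling, log axis) of Sult2a1 to Sult2a6 (circles) and Sult2a8 (black bars) in each of the 16 libraries; open triangles at the foot mark rows listed at 0. The 6 circles move together across libraries, from 3 nearly empty ones to a sum of 249.9 CPM in immature control library 3, while Sult2a8 stays between 130.3 and 825 CPM.

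Sult3a2, a sulfotransferase of the amine-conjugating SULT3 family on chromosome 10 (33766424 to 33786704), was the gene with the smallest p of the 51 in both knockout comparisons. It had 1.32, 1.012, 0.659 and 8.94 CPM in mature LERKO livers, against 0.254, 0.558, 0.268 and 0.210 CPM in mature controls. At the immature stage it had 0.460, 0.533, 1.23 and 0.245 CPM in LERKO and 0.0518, 0.103, 0.151 and 0.0568 CPM in controls. Each LERKO library was above each control library of its stage. The gene passed the filter on low counts only with its mature LERKO libraries, the group where it was highest. Its p and its lack of overlap in mature mice are therefore not separate support for a difference. The same limit holds for its tests with the stages together, between stages in LERKO mice, and of stage with the genotypes together. DESeq2 and edgeR used the same filter. The levels rest on few reads, 13 to 151 counts in mature LERKO, 5 to 12 in mature control, 5 to 22 in immature LERKO and 1 to 3 in immature control libraries. The log2 fold change was 3.17 (SE 0.76, unadjusted p = 0.000747, adjusted p = 0.481, edgeR) in mature and 2.65 (SE 1.04, adjusted p = 0.9995, edgeR) in immature mice, and 2.91 (SE 0.64, adjusted p = 0.999, edgeR) with the stages together. DESeq2 gave adjusted p of 0.0251 in mature mice and 0.00205 with the stages together, past the threshold, where it called 27 and 3 genes in all.

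Mature LERKO library 4, with the acute phase transcripts, held the highest value. Without it the mature log2 fold change was 1.64 (adjusted p = 0.541, edgeR), and that with the stages together 2.15 (adjusted p = 0.296, edgeR). Sult3a2 shares 7.72% of its 50-base stretches with Sult3a1, a neighbour that was left out of the set. Sult3a1 stood at 25.9, 45.1, 32.8 and 74.2 CPM in mature LERKO livers, against 32.9, 23.5, 32.8 and 27.6 CPM in mature controls. In immature mice Sult3a1 had 13.6, 86.3, 42.2 and 14.4 CPM in LERKO and 23.9, 45.2, 29.6 and 6.70 CPM in control livers. Its highest library, immature LERKO 2, had 0.533 CPM of Sult3a2, and its groups overlapped at both stages. Its fold change on the log2 scale was 0.61 (SE 0.56, adjusted p = 0.828, edgeR) in mature and 0.57 (SE 0.56, adjusted p = 0.9995, edgeR) in immature LERKO.

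**Figure D5:**
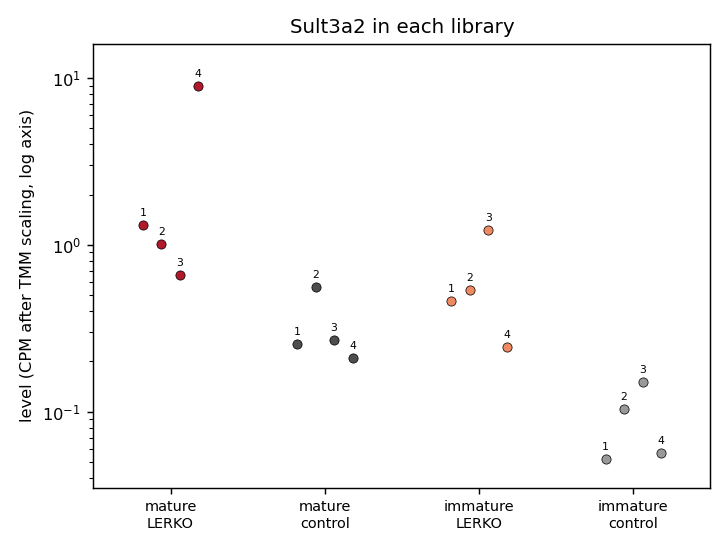
Level of Sult3a2 (CPM after TMM scaling, log axis) in each library, with library numbers. At each stage all LERKO points lie above all control points, from 0.659 to 8.94 CPM against 0.210 to 0.558 CPM in mature mice.

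Sult1c2 and Sult5a1 were chosen after their values were seen. Sult1c2 had 14.1, 10.2, 9.53 and 4.32 CPM in mature LERKO livers, against 11.7, 12.3, 12.9 and 8.62 CPM in mature controls. Sult5a1, whose substrates are not well known, had 2.64, 3.59, 2.03 and 13.3 CPM in mature LERKO livers, against 5.59, 3.95, 3.08 and 2.90 CPM in mature controls. Mature LERKO library 4 was the lowest of all 16 for the first gene and the highest for the second, and the groups overlapped. Sult4a1, Sult2b1 and Sult1c1 did not pass the filter, with 4, 3 and 0 counts in all.

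Between stages, no gene of the 51 passed with edgeR, DESeq2 or limma-voom, in controls or in LERKO mice, against 0% of all genes in edgeR for either. In controls an unadjusted p under 0.05 was reached by 12 of 51, against 9.84% of all genes, and 6 of the 12 are Sult2a1 to Sult2a6, lower in mature mice. The others were Gstm2, Gstm3, Gstm5 and Gstm6, higher in mature mice, and Ugt3a1 and Ugt3a2, lower. For Sult2a1 the log2 fold change of mature against immature controls was -4.41 (SE 1.49, adjusted p = 0.34, edgeR) and for Sult2a3 -4.53 (SE 1.504, adjusted p = 0.336, edgeR). Without immature control library 3 the values were -2.46 for Sult2a1 and -1.75 for Sult2a3, and without mature control library 2 they were -6.65 for Sult2a1 and -6.05 for Sult2a3. The mean of Gstm5 was 8.35 ± 0.5 CPM (SD) in mature controls, against 5.88 ± 0.885 CPM in immature ones, with 0.50 on the log2 scale (SE 0.17, adjusted p = 0.336 by edgeR). Its groups did not overlap, nor did those of Sult3a2, higher, and Ugt2b5, lower in mature controls, 3 of 51 against 8.86% of all genes.

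In LERKO mice the stages differed at an unadjusted p under 0.05 for 1 of 51 genes, Sult3a2, against 4.93% of all genes, and groups did not overlap for 0 of 51, against 1.52%. On the log2 scale the fold change of Sult3a2 for mature against immature LERKO was 2.26 (SE 0.71, adjusted p = 0.951, edgeR), and 0.71 without mature LERKO library 4. Sult3a2 passed the filter on low counts only with its mature LERKO libraries. Its p here and with the genotypes together is therefore not separate support for a difference. With the genotypes together the stage effect passed for 0 of 51 genes in edgeR, DESeq2 and limma-voom, against 0% of all genes in edgeR, and 7 of 51, Sult2a1 to Sult2a6 lower and Sult3a2 higher in mature mice, had an unadjusted p under 0.05, against 7.92% of all genes. The smallest adjusted p of the 51 was 0.453 in edgeR there. These comparisons share samples with the knockout comparisons, so their values are not independent of those above.

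The genes that supply, assist or control conjugation gave 0 calls too in every comparison with edgeR. The products of 6 tested genes make, reduce, use or break down glutathione (Gclc, Gclm, Gss, Gsr, Gpx1 and Chac1). All 6 had positive knockout fold changes in mature and negative ones in immature mice, with medians of 0.16 and -0.15. An unadjusted p under 0.05 was reached by 0 in mature mice, against 7.3% of all genes, and by 1 in immature mice, against 2.76%. That gene was Chac1, whose product breaks glutathione down, chosen after its values were seen. It stood at 4.64 ± 2.67 CPM in immature LERKO and 11.7 ± 3.51 CPM in immature control livers. Gclc, the catalytic subunit of the first step of glutathione synthesis, averaged 208 ± 73.7 CPM in mature LERKO and 179 ± 43.8 CPM in mature control livers, and Gpx1, a glutathione peroxidase, 1898 ± 269 CPM in mature LERKO and 1746 ± 300.5 CPM in mature control livers. For UDP-glucuronate supply (4 genes tested), knockout medians were 0.05 in mature and 0.21 in immature mice. Ugp2, which makes UDP-glucose, averaged 277 ± 81.3 CPM in mature LERKO and 336 ± 42.3 CPM in mature control livers. Slc35d1 averaged 97.3 ± 2.81 CPM in mature LERKO and 89.5 ± 1.47 CPM in mature control livers. For the sulfate donor (6 genes), knockout medians were 0.03 at both stages. Papss2, a PAPS synthase, averaged 385 ± 85.1 CPM in mature LERKO and 469 ± 67.5 CPM in mature control livers. Slc26a1 averaged 258 ± 60.2 CPM in mature LERKO and 248.5 ± 23.7 CPM in mature control livers. In each of these 2 lists 1 gene had an unadjusted p under 0.05 in mature and 0 in immature mice, against 7.3% and 2.76% of all genes. These were Slc35b1 and Bpnt1, chosen after their values were seen. Both were higher in mature LERKO, by 0.67 and 0.25 on the log2 scale.

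Other conjugating enzymes and epoxide hydrolases (11 tested) had knockout medians of 0.06 in mature and -0.03 in immature mice. Of these, 0 had an unadjusted p under 0.05 at either stage, against 7.3% of all genes in mature and 2.76% in immature mice. Mgst1, the microsomal GST, averaged 1636 ± 222 CPM in mature LERKO and 1600 ± 167 CPM in mature control livers. Of 8 transporters that carry conjugates or their precursors, 6 had negative fold changes in mature LERKO, with a median of -0.17, and 4 in immature LERKO, with a median of -0.005. Abcc2, the canalicular export pump for conjugates, averaged 504.5 ± 77.3 CPM in mature LERKO and 592 ± 23.2 CPM in mature control livers. Of 9 regulators, 1 had an unadjusted p under 0.05 in mature and 0 in immature mice, against 7.3% and 2.76% of all genes. That gene was Keap1, chosen after its values were seen, higher in mature LERKO by 0.21 on the log2 scale. Hnf4a, a hepatocyte nuclear receptor, averaged 929 ± 163 CPM in mature LERKO and 798 ± 126 CPM in mature control livers. Rxra, the partner of several xenobiotic receptors, averaged 537 ± 51.3 CPM in mature LERKO and 508 ± 32.3 CPM in mature control livers. In immature mice Hnf4a averaged 797 ± 97.5 CPM in LERKO and 978.5 ± 185 CPM in control livers. Rxra averaged 499 ± 72.8 CPM in immature LERKO and 568 ± 65.6 CPM in immature control livers. The 3 tested genes of deconjugation, among them the glucuronidase gene Gusb at 27.1 ± 6.13 CPM in mature LERKO and 25.8 ± 2.18 CPM in mature control livers, had medians of 0.01 and -0.01.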

How the data were processed

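The deposited table holds gene counts of 16 libraries, with genes as rows. Per the labels' protocols, RNA was isolated with on-column DNase treatment and stranded paired-end libraries were made. The submitters' processing notes name mm10, STAR, limma and R 4.05. Neither the counting tool nor its treatment of shared reads is stated there. The deposited counts are whole numbers except 10 values of 2 genes in 5 columns, which look like estimated counts, per the values the authors deposited, and were rounded.

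Genes were tested with edgeR 4.0.16 (quasi-likelihood, TMM factors, R 4.3.3) in 1 model over 4 groups, on 13379 genes kept by filterByExpr with a count minimum of 10 and a total minimum of 15. The Benjamini-Hochberg adjusted p threshold was 0.05. Alternatives were DESeq2 1.42.0, limma-voom (limma 3.58.1), other size factors, no filter, the compared groups only, and leaving out libraries. The code was tested on simulated data. Positions and exon lengths come from GENCODE vM21 (GRCm38). Genes named are the 4 with the highest level per kilobase in each class, the 3 smallest p in each comparison, genes whose genotypes do not overlap, and the Ugt1a, Gstp and Sult2a families. Other tested genes of the set described on their own are marked as picked later. From each pathway list, up to 2 with the highest level are named. Chac1, Slc35b1, Bpnt1 and Keap1 of these lists were picked later. The members and lists were chosen with earlier results of these data known.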

Additional observations from a re-analysis of the deposited data

Results flagged for a closer look

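In groups of 4 mice, 1 library lay far from the other 3 by Dixon's 95% criterion in 15 of 116 checks over 29 genes and sums. The criterion flags about 1 in 20 independent checks of normally distributed values. These checks share libraries, hold genes that move together, and some genes were picked for small p or lack of overlap. The count therefore cannot be set against that rate. Mature control library 2 was the high one in 6 of the 15, at 6.089 CPM for Sult2a1, 8.553 CPM for Sult2a2, 0.5578 CPM for Sult2a4, 4.183 CPM for Sult2a5, 1.906 CPM for Sult2a6 and 0.5578 CPM for Sult3a2. The 5 Sult2a rows share sequence and count as 1 observation. Mature LERKO library 4 stood apart in 4, with high values for Sult3a2 (8.944 CPM) and Gstm5 (7.819 CPM) and low values for Gstt1 (154.5 CPM) and the UGT sum (2476 CPM). It is the library with 84390 CPM of acute phase transcripts.

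Immature control library 3 was high for Sult2a3 (15.42 CPM) and Gstp3 (31.64 CPM). Single cases were Gstm6 in immature LERKO library 4 (83.84 CPM, high), Gstp3 in mature LERKO library 1 (35.99 CPM, high) and Gstm1 in mature control library 1 (790.1 CPM, low).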

How the results depend on the processing

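Of 495 alternative values for 23 pairs of a named gene and a comparison, 493 kept their direction and their side of the threshold, 2 passed it and 0 reversed. Both that passed are Sult3a2 with DESeq2, which called 1 of the 51 genes in mature LERKO mice and 1 over both stages, where edgeR called 0. The pairs were picked from these same data by small p or lack of overlap, and some left-out libraries belong to neither compared group. The tally is therefore weak support for stability. Sizes could change much, as for Gstt1 in mature LERKO, from -0.26 to -0.06 without mature LERKO library 4. Over all genes DESeq2 called 27 in mature and 13 in immature LERKO mice, 74 between stages in controls, 6 between stages in LERKO mice, 22 for the difference of knockout effects, 3 for the knockout over both stages and 29 for stage over both genotypes, where edgeR called 1, 1, 0, 0, 0, 1 and 0. With the compared groups only, edgeR called 6 genes between stages in controls. The cause of these differences was not tested.

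Leaving out single libraries gave 1 to 2 genes in mature LERKO mice (2 without mature LERKO library 1), 0 to 1 between stages in controls (1 without mature LERKO library 4) and 0 to 1 between stages in LERKO mice (1 without mature LERKO library 1). No paired analysis was possible because the labels carry no replicate numbers shared between groups. Total counts of 18123974 to 23213905 put 1 to 12 counts on Sult3a2 in control libraries. Intervals were also wide for Sult2a1 and Sult2a2, with up to 2451 and 1268 counts, whose levels varied widely between mice of a group.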
